A study of Mus musculus with 3 samples.

Results

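The miR-183 cluster is a group of 3 miRNA hairpins, miR-183, miR-96 and miR-182, that lie together on mouse chromosome 6. Every arm of miR-183, miR-96 and miR-182 listed among the sequenced small RNAs was taken as a member, without regard to its level, which gave 6 arms of the 693 listed miRNAs: the 5p and the 3p arm of each hairpin. Small RNA was sequenced from TAG1 mouse embryonic stem (ES) cells, a line in which doxycycline (Dox) switches on a constitutively active Alk4* receptor that phosphorylates Smad2/3. The Control library (0 hr) came from untreated cells in serum, the SB library from cells kept for 16 hrs with SB, an inhibitor of the receptor kinases that phosphorylate Smad2/3, and the Dox library from cells given the same 16 hrs of SB followed by 12 hrs of Dox. All 3 libraries came from the same line. The treated cells were grown in knockout serum replacement in place of serum, so SB and the change of medium cannot be told apart in the comparison with Control. Cells of the Dox library were also in culture 12 hrs longer than those of the SB library. The step from SB to Dox combined the end of the SB treatment, doxycycline itself and Alk4* induction, which cannot be told apart here. The study checked doxycycline alone in the parental J1 line, which lacks the receptor, but for none of the arms of this cluster.

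There was 1 library per condition. No comparison therefore has a replicate check, and no p-value is given. The 95% intervals below are exact intervals for counting error only, and PCR copies are not independent molecules, so these intervals understate the uncertainty about the conditions.

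A miRNA hairpin is cut by Drosha and Dicer into a duplex of a 5p and a 3p arm, of which the arm retained in an Argonaute protein, the guide, is usually the abundant one. Bases 2 to 8 of the guide, its seed, pair with target mRNAs. In this cluster the 5p arms are the usual guides and are called so here. The hairpins of the cluster are processed from a shared primary transcript and are best known from sensory organs: they are abundant in photoreceptors, inner ear hair cells and olfactory epithelium, and changes in the miR-96 seed cause hearing loss. The cluster is also expressed in epithelia and in ES cells.

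The mature sequences are shown because the arms that serve as guides in this cluster resemble each other in the seed, and because reads were assigned by perfect match. They are RefSeq sequences on GRCm38.p6, all on the minus strand, with the seed in capitals.

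miR-183-5p, chr6:30169711-30169732: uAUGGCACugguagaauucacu
miR-96-5p, chr6:30169506-30169528: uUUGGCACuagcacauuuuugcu
miR-182-5p, chr6:30165962-30165986: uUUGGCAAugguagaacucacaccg
miR-183-3p, chr6:30169672-30169693: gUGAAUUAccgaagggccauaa
miR-96-3p, chr6:30169465-30169486: cAAUCAUGuguagugccaauau
miR-182-3p, chr6:30165923-30165943: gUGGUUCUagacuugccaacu

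Among the 5p arms, with positions counted from the 5′ end and the base of the miRNA named first written first, the seed of miR-96-5p differed from that of miR-182-5p by C8A and from that of miR-183-5p by U2A. The seeds of miR-182-5p and miR-183-5p differed by both U2A and A8C. The 3p seeds differed from each other and from the 5p seeds. No other listed miRNA with a RefSeq sequence, 516 of 693 being matched, had the seed of a member. Among 1005 hairpins, the longest run of bases that a mature arm shared with a hairpin other than its own was 9 to 10 bases. That was shorter than the shortest read kept, which had more than 16 bases.

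The hairpins lie in the order Mir183 (chr6:30169668-30169737), Mir96 (chr6:30169446-30169551) and Mir182 (chr6:30165918-30165992) along the direction of transcription, with 116 bases between Mir183 and Mir96 and 3453 bases between Mir96 and Mir182. They span 3820 bases in all, and in GENCODE M21 no other gene overlaps them. The nearest genes lie on the opposite strand: Rncr4, a lincRNA, 3155 bases from the Mir183 end, and Nrf1, a protein-coding gene for a transcription factor, 12459 bases from the Mir182 end.

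The levels are the authors' rpm, reads per 1000000 reads of the total that they scaled to, where 1 read was worth 0.0913 rpm in Control, 0.0881 in SB and 0.101 in Dox. The listed miRNAs took up 28.3% of that total in Control, 24.1% in SB and 33.4% in Dox, and with this scaling the median log2 ratio of all 693 was -0.19 for SB over Control, 0.38 for Dox over SB and 0.19 for Dox over Control. Mouse ES cells are marked by the miR-290 and miR-302 clusters, of which a chosen list of 17 arms was read. All 17 were listed, while other listed arms of these clusters, such as miR-291b-5p and miR-302a-5p, were left off. The 17 arms summed to 81818, 65169 and 93753 rpm in Control, SB and Dox, of which miR-290-5p was 35638, 18094 and 37406 rpm. These arms went both ways: 5 were at least 25% higher and 4 at least 20% lower in SB than in Control, and 7 higher and 8 lower in Dox than in SB, where 26.0% and 42.9%, and 52.5% and 26.6%, of all listed miRNAs were. The balance for SB over Control turned with the scaling, as did that of all listed miRNAs. By the reads on listed miRNAs, 8 of the 17 arms were higher and 2 lower, where 35.1% and 32.0% of all were. By miR-26a-5p, 1 was higher and 7 lower, where 18.6% and 55.0% of all were.

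The 6 arms of the miR-183 cluster together stood at 1511 rpm in Control, 1309 in SB and 2652 in Dox, or 0.534%, 0.543% and 0.795% of the reads on listed miRNAs. Most of it was miR-182-5p, the guide of the hairpin farthest downstream, which was at 872 rpm in Control (854 to 890), 812 in SB (795 to 828) and 1588 in Dox (1563 to 1613). That was 57.7%, 62.0% and 59.9% of the cluster's reads, and the 57th, 54th and 42nd highest level among the listed miRNAs. miR-183-5p came next, at 333 rpm in Control (322 to 344), 253 in SB (244 to 262) and 468 in Dox (455 to 482). For both guides the Dox library was the highest and the SB library the lowest, with intervals that did not overlap.

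miR-96-5p was the least abundant of the 5p arms, at 144 rpm in Control (137 to 151.8), 122 in SB (116 to 129) and 231 in Dox (221 to 240). miR-183-3p stood at 134 rpm in Control (127 to 140.7), 93.4 in SB (87.8 to 99.1) and 153 in Dox (145.4 to 161). In Control it was close below miR-96-5p, with 1.08 reads of miR-96-5p for each read of miR-183-3p (1.01 to 1.16), against 1.31 in SB (1.21 to 1.42) and 1.51 in Dox (1.41 to 1.61). miR-183-3p was thus the only 3p arm with more than 100 rpm in Control. The 3p arm of miR-182 stood at 25.5 rpm in Control (22.6 to 28.6), 24.9 in SB (22.1 to 28.0) and 203.2 in Dox (194 to 212). It was nearly level in Control and SB and overtook miR-183-3p in Dox. miR-96-3p stayed the least abundant arm, with 31, 46 and 86 reads, or 2.83 rpm in Control (1.92 to 4.02), 4.05 in SB (2.97 to 5.40) and 8.69 in Dox (6.95 to 10.7). In Control and in SB, the order from the highest to the lowest arm was therefore miR-182-5p, miR-183-5p, miR-96-5p, miR-183-3p, miR-182-3p and miR-96-3p.

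**Figure D1:**
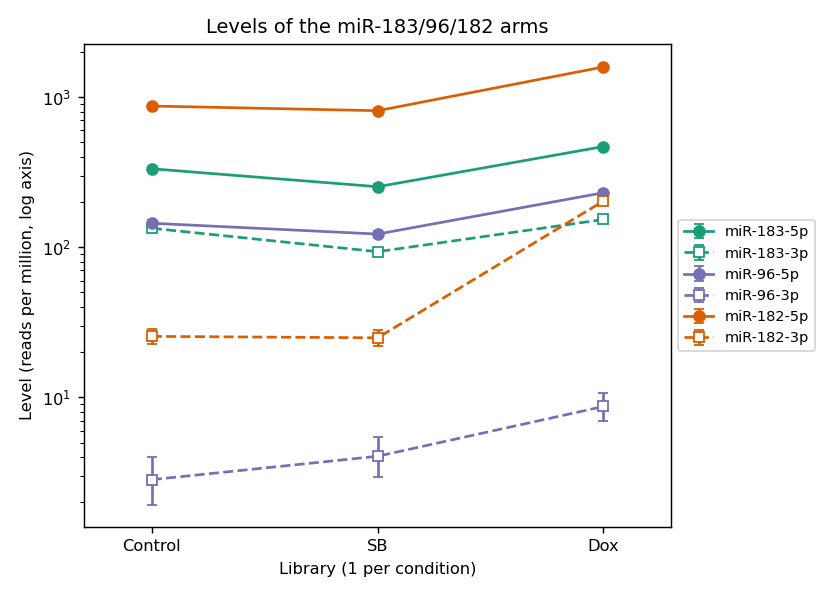
Level of each arm of the miR-183 cluster in rpm (y axis, log scale) in the Control, SB and Dox libraries (x axis, 1 library each), with 95% exact Poisson intervals as bars. The lines join the values of 1 arm. The line of miR-182-3p is level from Control (25.5 rpm) to SB (24.9 rpm) and reaches 203.2 rpm in Dox, above miR-183-3p.

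The comparison of SB with Control asks which arms were lower once endogenous Smad2/3 signalling was switched off. The hairpin at the upstream end was lower in SB, with a log2 ratio of -0.40 (-0.47 to -0.33) for miR-183-5p and of -0.52 (-0.63 to -0.40) for miR-183-3p. Ratios were counted past the fold that the study's methods use, which is a level at least 25% higher or, in reverse, at least 20% lower. The study asked for this fold down in SB and up in Dox together, with a Z-score limit on each. Here each comparison is counted alone and by the fold only. Counted so, the arms of miR-183 were the 2 lower arms, where 42.9% of all listed miRNAs were as far below Control. miR-96-5p had a log2 ratio of -0.24 (-0.35 to -0.14) and miR-182-5p of -0.10 (-0.14 to -0.06), both short of that fold. miR-182-3p, at -0.03 (-0.27 to 0.21), did not differ beyond counting error. The only arm at least 25% higher was miR-96-3p, as were 26.0% of the listed miRNAs, and its log2 ratio of 0.52 had an interval from -0.17 to 1.22. The median over the arms was -0.17, close to the -0.19 of all listed miRNAs.

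This comparison depended on the scaling. Scaled to the reads on listed miRNAs, the cluster's sum had a log2 ratio of 0.024 for SB over Control, against -0.21 by rpm, and no arm was 20% lower. By that scaling 35.1% of all listed miRNAs were at least 25% higher and 32.0% at least 20% lower. miR-182-5p was below Control by rpm and when scaled to miR-26a-5p, the study's reference miRNA, and above it under the other 4 scalings (-0.35 to 0.16 over 6 scalings). miR-183-5p (-0.64 to -0.16), miR-183-3p (-0.76 to -0.29) and miR-96-5p (-0.48 to -0.0091) were below Control under all 6. miR-26a-5p itself had a log2 ratio of 0.24 for SB over Control and 0.06 for Dox over SB.

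The comparison of Dox with SB asks which arms were higher once SB had been followed by 12 hrs of Dox. All 6 arms were at least 25% higher in Dox, where 52.5% of all listed miRNAs were as far above SB and 26.6% as far below. Their median log2 ratio was 0.94, against 0.38 over all listed miRNAs. The cluster's sum was 2.03-fold higher, a log2 ratio of 1.02 (0.99 to 1.05). The 3 guides were close to each other: miR-182-5p was higher by a log2 ratio of 0.97 (0.93 to 1.01), miR-96-5p by 0.92 (0.82 to 1.01) and miR-183-5p by 0.89 (0.82 to 0.96). These ratios lay within 1.06-fold of each other, although the guides differed in level.

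The 3p arms did not move as a group. miR-182-3p, the arm that pairs with the miR-182-5p guide in the duplex, was 8.15-fold higher in Dox than in SB (7.20 to 9.27), a log2 ratio of 3.03 (2.85 to 3.21). That was the 8th highest ratio of the 693 listed miRNAs and the 4th highest among the 5 arms of the cluster and 286 other miRNAs with at least 100 reads in every library. miR-183-3p, the most abundant 3p arm in SB, was higher by a log2 ratio of only 0.71 (0.60 to 0.83). miR-96-3p was higher by 1.10 (0.57 to 1.65), with few reads. miR-182-3p and miR-96-3p were the 2 arms at least 2-fold higher, where 24.1% of all listed miRNAs were.

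Under the 5 other scalings the arms kept a positive log2 ratio for Dox over SB, of 0.42 to 0.89 for miR-183-5p, 0.45 to 0.92 for miR-96-5p, 0.49 to 0.97 for miR-182-5p and 2.56 to 3.03 for miR-182-3p, the rpm value included. The arm that was under 25% higher in some of them was miR-183-3p (0.24 to 0.71). Scaled to the reads on listed miRNAs, which lowers every log2 ratio by the same amount, 32.0% of all listed miRNAs were at least 25% higher and 41.3% at least 20% lower, where 5 of the 6 arms were higher and none lower.

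**Figure D2:**
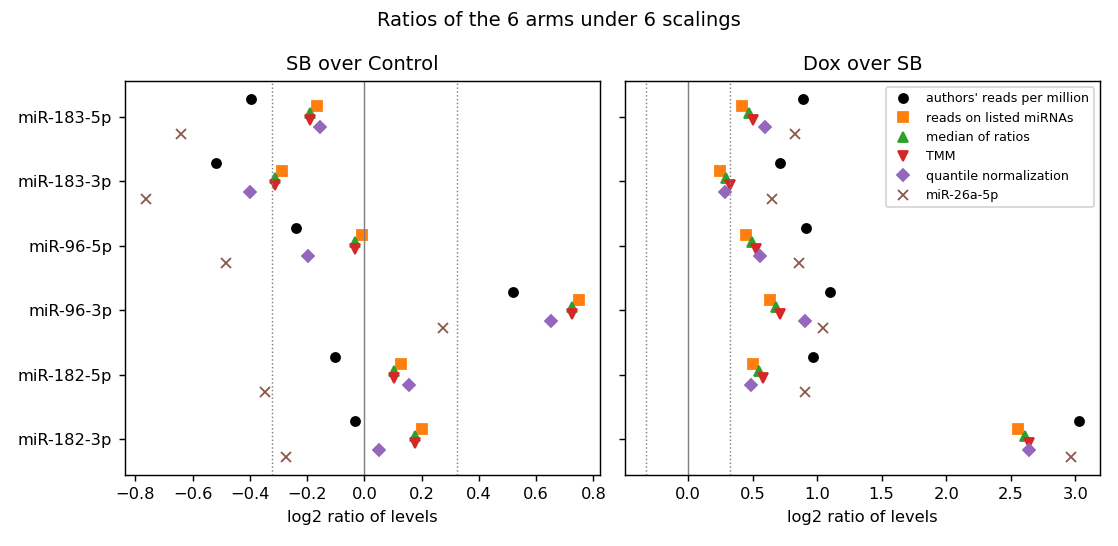
Log2 ratio of each arm (rows) for SB over Control (left) and Dox over SB (right) under 6 scalings, shown as marker shapes and colours. The x axes have different ranges, the solid line is at 0 and the dotted lines are at 25% higher and 20% lower. On the left the miR-182 arms lie on both sides of 0, and on the right every marker lies above 0, with miR-182-3p at 2.56 to 3.03.

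Dox and Control were compared to set cells given SB and then Dox against cells grown in serum. Since all 3 comparisons are made from the same 3 libraries, this ratio adds no independent observation. In Dox, 5 arms were at least 25% higher than in Control, where 42.6% of the listed miRNAs were as far above Control and 29.1% at least 20% below it, and the median log2 ratio was 0.77 over the arms and 0.19 over all listed miRNAs. miR-182-5p was higher by 0.86 (0.83 to 0.90), miR-96-5p by 0.68 (0.58 to 0.77) and miR-183-5p by 0.49 (0.43 to 0.55), in this case without overlap between miR-182-5p and the other guides. miR-182-3p was 7.98-fold higher (7.04 to 9.08), the 3rd highest ratio of the 693 and the highest among those with 100 reads in every library. It and miR-96-3p, at a log2 ratio of 1.62 (1.01 to 2.26), were the arms at least 2-fold higher, where 15.6% of the listed miRNAs were. miR-183-3p, the arm that was less than 25% higher, had a log2 ratio of 0.19 (0.09 to 0.30), and its sign changed with the scaling (-0.11 to 0.19). miR-183-5p (0.19 to 0.49 over 6 scalings) was at least 25% higher in 2 of the 6, by rpm and by quantile normalization, so that 4 arms were under the other 4, where 28.9% to 33.3% of all listed miRNAs were.

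The balance between the arms of a hairpin can be read within a library, where a common scaling factor cancels. The miR-182 hairpin changed its balance in Dox. The 3p arm made up 2.84% of its reads in Control (2.52 to 3.19) and 2.98% in SB (2.65 to 3.34), but 11.3% in Dox (10.9 to 11.8). There were 34.2 reads of miR-182-5p for each read of miR-182-3p in Control, 32.6 in SB and 7.81 in Dox. The odds of 3p to 5p were thus 4.17-fold higher in Dox than in SB, a log2 odds ratio of 2.06 (1.87 to 2.25). Between SB and Control it was 0.07, with shares that overlapped.

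The arms meant here are shown in capitals in the miR-182 hairpin, 75 bases on GRCm38.p6 with the 5p arm at bases 7 to 31 and the 3p arm at bases 50 to 70.

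Mir182 hairpin, chr6:30165918-30165992: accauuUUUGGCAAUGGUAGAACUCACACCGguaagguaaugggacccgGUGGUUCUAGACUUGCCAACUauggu

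The other hairpins of the cluster did not share this shift. The 3p arm made up 28.6% of the miR-183 reads in Control (27.4 to 29.9), 27.0% in SB (25.6 to 28.4) and 24.6% in Dox (23.5 to 25.7). Its log2 odds ratio for Dox over SB was -0.18 (-0.31 to -0.04), of opposite sign to that of miR-182. For miR-96 the 3p share was 1.92% in Control (1.31 to 2.72), 3.21% in SB (2.36 to 4.25) and 3.63% in Dox (2.91 to 4.46), with a log2 odds ratio of 0.19 (-0.36 to 0.74) for Dox over SB. Its interval included both no shift and a shift of up to 0.74, and did not reach that of miR-182. miR-96 had its larger step between Control and SB, at 0.76 (0.06 to 1.47), on 31 and 46 reads of the 3p arm.

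**Figure D3:**
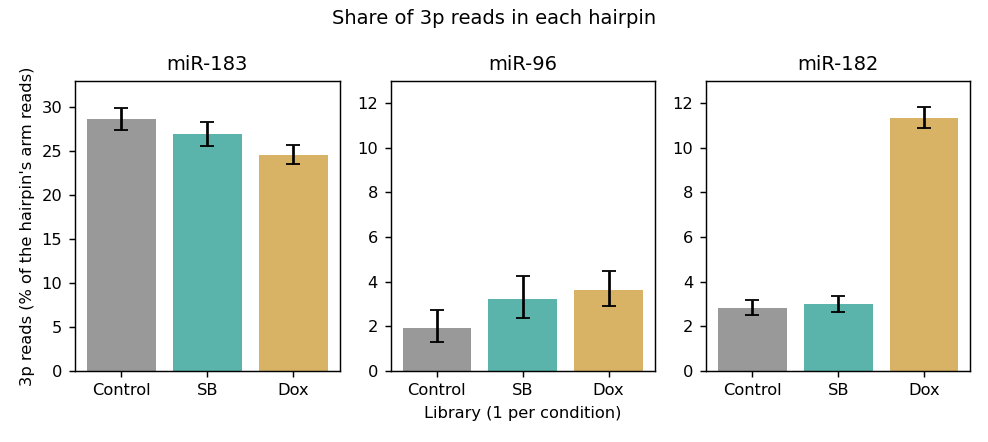
Share of the reads of each hairpin that came from its 3p arm, in percent, in the Control, SB and Dox libraries, with 95% exact binomial intervals. The y axes start at 0 and have different ranges. The 3p share of miR-182 is 2.84%, 2.98% and 11.3%, while that of miR-183 goes from 28.6% to 24.6%.

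Shifts of this kind were frequent among the other hairpins. Of 239 hairpins with both arms listed, 169 had at least 10 reads for each arm in each library, the 3 of the cluster among them. For Dox over SB the odds of 3p to 5p were at least 2-fold higher in 31 of them (18.3%) and at least 2-fold lower in 31 (18.3%), with a median log2 odds ratio of -0.21 and quartiles of -0.77 and 0.81. miR-182 had the 7th highest value and the 11th by size in either direction. Of the 62 hairpins with at least 100 reads for each arm in each library, 7 were at least 2-fold higher and 13 at least 2-fold lower, and miR-182 was the highest, followed by miR-431 at 1.82. By size in either direction among these 62 it came 4th, after miR-23a (-3.51), miR-23b (-2.69) and miR-292 (-2.57).

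Among the 169 hairpins with at least 10 reads, the 3 largest shifts by size were those of miR-3096b, miR-23a and miR-145. In miR-23a, a hairpin clustered with miR-27a and miR-24, the less abundant arm also gained: miR-23a-5p was at 24.3 rpm in Control, 15.9 in SB and 188 in Dox, while miR-23a-3p was at 739, 862 and 895 rpm. In miR-145, known from smooth muscle, the 5p arm was at 25.1, 49.1 and 8.99 rpm and the 3p arm at 1.73, 2.03 and 3.74 rpm, a log2 odds ratio of 3.33. In miR-3096b the value of 3.93 came from the 5p arm, at 174, 1386 and 84.3 rpm. The less abundant arm gained at least 2-fold in 34 of the 169 hairpins (20.1%) and lost as much in 28, and by this measure miR-182 ranked 8th.

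**Figure D4:**
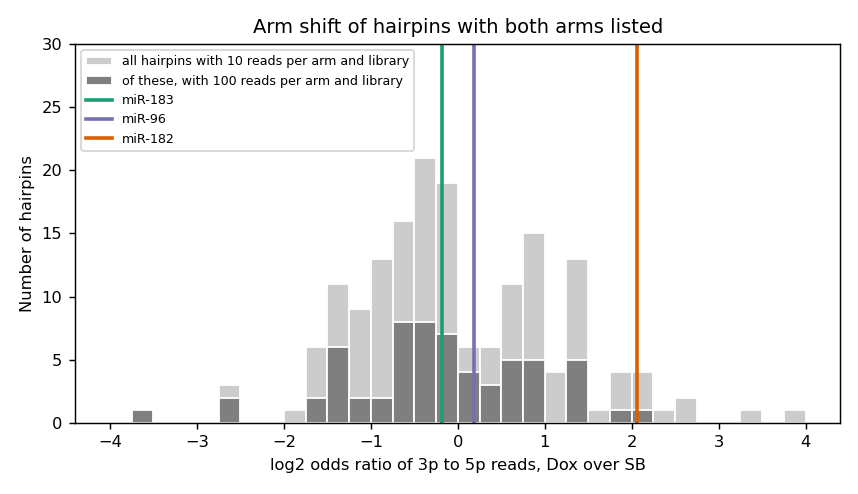
Number of hairpins (y axis) by log2 odds ratio of 3p to 5p reads for Dox over SB (x axis), for the 169 hairpins with at least 10 reads for each arm in each library. Positive values are a larger 3p share in Dox. The vertical lines mark miR-183 (-0.18), miR-96 (0.19) and miR-182 (2.06), the last of them beyond the upper quartile of 0.81.

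Between hairpins, the guides can also be compared without any scaling. There were 2.62 reads of miR-182-5p for each read of miR-183-5p in Control (2.52 to 2.72), 3.21 in SB (3.08 to 3.35) and 3.39 in Dox (3.28 to 3.50). The step between Control and SB, a factor of 1.23 (1.16 to 1.30), was larger than that between SB and Dox, 1.06 (1.00 to 1.11). miR-96-5p went from 0.434 reads for each read of miR-183-5p in Control to 0.484 in SB and 0.493 in Dox, factors of 1.11 (1.02 to 1.22) and 1.02 (0.938 to 1.11). miR-183-5p was thus lower relative to the other guides in SB than in Control. Only the change of such a ratio between libraries is read here, since ligation and PCR can favour some sequences and the order of levels between miRNAs may differ from that in the cell.

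The miRNAs with the most similar ratios were sought among 286 other miRNAs with at least 100 reads in every library, by the distance between their log2 ratios for SB over Control and Dox over SB, comparisons that share the SB library. miR-96-5p and miR-182-5p had the same nearest pair: miR-125a-5p at a distance of 0.085 and 0.073, and miR-27b-3p at 0.090 and 0.073. miR-125a-5p, a relative of the developmental miRNA lin-4, was at 101 rpm in Control, 91.1 in SB and 172 in Dox. The 3rd nearest was miR-337-5p at 0.10 for miR-96-5p, and miR-467c-5p at 0.093 for miR-182-5p. miR-183-5p lay nearest to miR-669c-5p at 0.026, then miR-337-5p at 0.058 and miR-450b-3p at 0.10. The guides were in a crowded region, with 78, 69 and 53 miRNAs within 0.5 of miR-183-5p, miR-96-5p and miR-182-5p. miR-182-3p had none within 0.5, its nearest being miR-23a-5p at 0.79, miR-92b-5p at 1.02 and miR-181c-3p at 1.08.

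**Figure D5:**
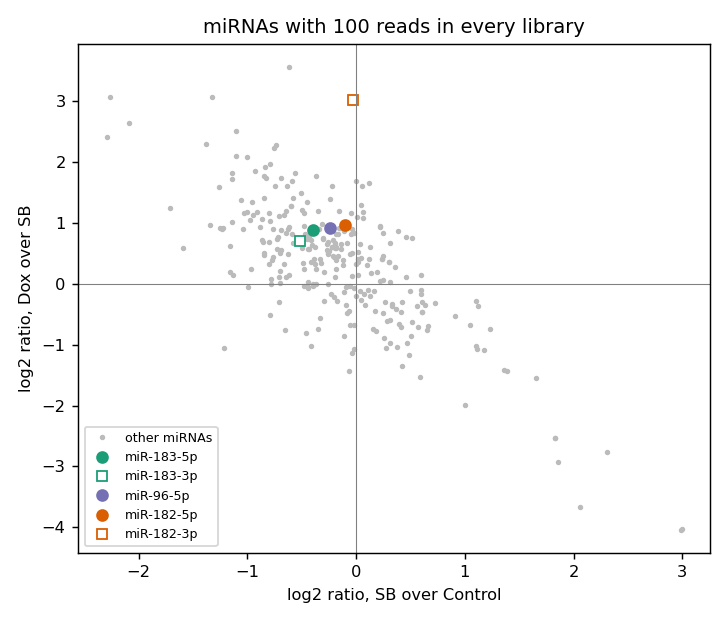
Log2 ratio of rpm for SB over Control (x axis) and Dox over SB (y axis), 1 point for each miRNA with at least 100 reads in every library, with arms of the miR-183 cluster marked. The axes share the SB library, which tilts the cloud by construction. The guides lie at 0.89 to 0.97 on the y axis within the cloud, and miR-182-3p at 3.03 has the 4th highest value on that axis.

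The miR-200 family, from the other miRNA clusters typical of epithelia, holds miR-200a, miR-200b, miR-200c, miR-141 and miR-429, which repress the Zeb transcription factors. All 9 of its 10 arms that were listed (miR-200c-5p was not) were at least 20% lower in SB than in Control, with a median log2 ratio of -0.64, where 42.9% of all listed miRNAs were, and at least 25% higher in Dox than in SB, with a median of 1.34, where 52.5% were. Some of these arms had few reads, among them miR-429-5p with 5, 2 and 14 reads in Control, SB and Dox, and the counting interval included no change for 3 of the 9 in SB over Control and for 2 in Dox over SB. miR-200a-3p was at 390, 232 and 709 rpm in Control, SB and Dox, miR-200c-3p at 132, 75.9 and 156, and miR-200b-3p at 87.8, 61.8 and 174. Under all 6 scalings 7 to 9 arms were lower in SB, where 32.0% to 55.0% of all listed miRNAs were, and 7 to 9 higher in Dox, where 32.0% to 52.5% were. Set side by side, the miR-183 cluster had a median of -0.17 for SB over Control and 0.94 for Dox over SB.

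Markers of other cell types were summed in each library as well. In bulk RNA, fewer cells of a type and less RNA per cell cannot be told apart. The 18 miRNAs of a fibroblast list, all listed, summed to 3543 rpm in Control, 7700 in SB and 4163 in Dox: 16 were at least 25% higher in SB than in Control and none lower, and 15 were at least 20% lower in Dox than in SB and none higher, where 26.0% of all listed miRNAs were higher in SB and 26.6% lower in Dox. Over the 6 scalings 15 to 16 were higher in SB, with 2 lower by miR-26a-5p, and 15 to 18 lower in Dox. Against Control, 12 were lower and 3 higher in Dox by rpm, with a median log2 ratio of -0.61, although their sum was higher, where 29.1% of all listed miRNAs were lower and 42.6% higher, with a median of 0.19. Among them miR-21-5p was at 1159, 2486 and 2041 rpm and miR-199a-3p, a miRNA of mesenchymal cells, at 547, 1943 and 337 rpm. These counts cover the chosen arms only. Of the partner arms left off, miR-21-3p and miR-145-3p were higher in Dox than in SB, and miR-22-5p was lower. A list of 7 epithelial miRNAs, 5 of them of the miR-200 family, summed to 703, 433 and 1155 rpm. A list of 6 miRNAs of neurons and sensory epithelium summed to 1818, 1564 and 2387 rpm, most of it miR-124-3p at 1736, 1517 and 2278 rpm. Of these, 2 were higher and 3 lower in SB than in Control, and 4 higher and 1 lower in Dox than in SB, counts near the shares over all listed miRNAs (26.0% and 42.9%, and 52.5% and 26.6%). In Dox against Control, 5 were higher and 1 lower by rpm, where 42.6% and 29.1% of all were, with a median log2 ratio of 0.56. Over the 6 scalings 3 to 5 were higher in that comparison. The 2 higher in SB were miR-204-5p, on 4, 11 and 7 reads in Control, SB and Dox, and miR-211-5p, on 24, 61 and 46 reads, both named after their values were seen. The part of cell makeup in the levels of the cluster was not tested.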

How the data were processed

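Total RNA of 3 cultures of TAG1 mouse ES cells (Control, SB, Dox) was isolated by the authors with a miRVana kit, made into Illumina small RNA libraries and sequenced in 2 pooled runs. The inhibitor is written SB-431541 in the labels and SB-431542 in the methods. The authors clipped adapters, kept reads over 16 bases and aligned them with Bowtie 0.12.7 to miRBase release 18, perfect matches only, mature sequences before hairpins. A read with more than 1 matching miRNA went to the best match in length or else counted for every match, which can duplicate values: 37 listed miRNAs shared all 3 values with another, none of them a member of the cluster. The authors listed a miRNA once its reads, summed over Control, SB and Dox, reached 10.

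The deposited values are rpm, which per the methods the authors scaled to the total reads of the sample. Each of the 2079 values was a whole multiple of the value of 1 read (tolerance 0.001 reads), which implied 10955686 reads in Control, 11354692 in SB and 9895513 in Dox, totals below the sequenced reads that the study states, by a share that differs between the libraries. Which reads were left out is not given in the sources used here. The multiples gave the reads behind each level, with a median of 98, 87 and 90 per miRNA. Ratios were taken without a pseudocount. Intervals are 95%: exact Poisson for levels, exact binomial (Clopper-Pearson) for shares and for ratios between libraries, and exact conditional for odds ratios. A miRNA was counted as higher from 25% above and, in reverse, as lower from 20% below, and an arm shift at 2-fold. With 1 library per condition no test was run, and separate cultures were not replicated. Other scalings were the reads on listed miRNAs, the median of ratios, TMM (trimming 30% of ratios and 5% of levels), quantile normalization and miR-26a-5p. The interval routines were tested on simulated data.

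Named miRNAs were all listed arms of the cluster and of the miR-200 family, the 3 nearest miRNAs to each guide and to miR-182-3p, the 3 other hairpins with the largest arm shift, miR-26a-5p and the most abundant miRNAs of the lists. The other hairpins given at 100 reads were named after their values were seen. The members and the lists were chosen with earlier results of these data known. Python 3.11.15, numpy 2.4.6, pandas 2.3.3, scipy 1.17.1 and matplotlib 3.10.9 were used.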

Additional observations from a re-analysis of the deposited data

How the results depend on the processing

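No paired analysis was possible because each condition had 1 library, and no replicate could be left out. The log2 ratio of the cluster's sum for SB over Control, -0.21 by rpm, became 0.024 scaled to the reads on listed miRNAs, 4.95e-05 by the median of ratios, -0.0011 by TMM, 0.016 by quantile normalization and -0.45 by miR-26a-5p. For Dox over SB, 1.02 by rpm became 0.55, 0.60, 0.63, 0.59 and 0.96 in the same order, and 0.95 with the 5p arms alone. For Dox over Control, 0.81 became 0.57, 0.60, 0.63, 0.61 and 0.51, and 0.76 with the 5p arms alone. The number of arms at least 25% higher or 20% lower for SB over Control, 3 by rpm, was 1 by the reads on listed miRNAs, by the median of ratios and by TMM. Under these scalings 33.9% to 35.1% of all listed miRNAs were higher and 32.0% to 32.5% lower. By quantile normalization it was 2, where 32.2% of all were higher and 37.2% lower. By miR-26a-5p it was 4, all lower, where 18.6% of all were higher and 55.0% lower. The number was 0 at a fold of 1.5 or 2, where 30.4% and 12.4% of all listed miRNAs were lower. At a fold of 2 it was 2 for Dox over SB and 2 for Dox over Control, against 6 and 5, where 24.1% and 15.6% of all were 2-fold higher. The number of hairpins with a 2-fold arm shift, 62, was 20 with at least 100 reads for each arm, where fewer hairpins were counted. The log2 odds ratio of the miR-182 arms was 2.06 by rpm, 2.15 by quantile normalization and 2.06 with 0.5 reads added. Depth limits miR-96-3p most, with 31 to 86 reads.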
